A study of Rattus norvegicus and Homo sapiens with 12 samples.

Results

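In DU145, a human prostate cancer cell line, the RNA of 10 genes linked to NF-kB was examined. These genes were taken as a list of symbols and matched by Ensembl identifier in the DU145 count table, where all 10 were found among 60107 listed genes. They are the chemokines CXCL1, CXCL2, CXCL3, CXCL8 and CCL20, the interleukins IL1A and IL1B, the NF-kB inhibitors NFKBIA and TNFAIP3, and the acute phase gene SAA1. The comparison was F2 DU145 against F0 DU145, with 3 libraries each of the 12 in the series. F0 is the parental line. F2 is the same line after rounds of 72 h in conditioned medium (CM) of purchased human mesenchymal stem cells (MSCs), each followed by 48 h of recovery in complete medium. The sample labels give 2 such rounds and the description of the series gives 3. Both populations were grown in DMEM with serum, and F2 was recovered after the last round. Whether the 3 F2 samples came from separate selections is not stated, so n, SD and p describe samples, whose spread may be technical. The other 6 libraries are from PAIII, a line from rat, whose identifiers could not be named and which are not analysed here.

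NF-kB is a family of dimeric transcription factors that IkB proteins hold in the cytoplasm until a kinase complex marks the IkB for destruction. Among the first genes NF-kB switches on are neutrophil-attracting chemokines, IL-1 and its own inhibitors, NFKBIA (IkB alpha) and TNFAIP3 (A20, a ubiquitin-editing enzyme), which close the loop. Many of these messages are short-lived because AU-rich elements in the 3′ UTR recruit decay factors. The CXCL members act through the receptors CXCR1 and CXCR2, and SAA1 is a secreted protein of the acute phase response driven by IL-1 and IL-6.

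In F2 DU145, 3 members rose (CXCL1, CXCL8 and TNFAIP3), 2 fell (NFKBIA and SAA1), and CXCL2 and CXCL3 did not pass the test. CCL20 was too low to test, and IL1A and IL1B had 0 counts in every library. Thus 5 of the 7 tested members were called, at an adjusted p under 0.05, where 18.2% of all 14316 tested genes were called. By direction, 3 of 7 members were higher, where 9.49% of all tested genes were called higher, and 2 of 7 were lower, where 8.67% of all were called lower. The F0 and F2 values did not overlap for those 5 members, and did not overlap for 34% of all tested genes. The median log2 fold change of the 7 tested members was 0.32, and that of all tested genes was -0.0025. SAA1 passed the filter on low counts only through its F0 libraries, and leaving it aside, 4 of 6 tested members were called. The members were also chosen with earlier results of these data known. All these shares, with or without SAA1, therefore describe the members and are not evidence about the group.

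The members lie on 5 chromosomes (GRCh38, GENCODE release 29), and 4 of the chemokine genes share a single cluster on chromosome 4. There, CXCL8 (ENSG00000169429) spans chr4:73740506-73743716 and CXCL1 (ENSG00000163739) chr4:73869393-73871242, both on the plus strand. CXCL3 (ENSG00000163734) spans chr4:74036589-74038807 and CXCL2 (ENSG00000081041) chr4:74097035-74099293, both on the minus strand. On chromosome 2, IL1A (ENSG00000115008, chr2:112773915-112784590) and IL1B (ENSG00000125538, chr2:112829751-112836903) are neighbours on the minus strand, and CCL20 (ENSG00000115009) lies far from them at chr2:227805739-227817564. NFKBIA (ENSG00000100906) is at chr14:35401511-35404749 on the minus strand, TNFAIP3 (ENSG00000118503) at chr6:137867188-137883312 on the plus strand and SAA1 (ENSG00000173432) at chr11:18266174-18269977 on the plus strand. All 10 are annotated as protein-coding.

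The 3 genes CXCL1, CXCL2 and CXCL3 are close copies of each other, of which CXCL1 was called higher and the other two were not called, so their sequences are shown side by side. Each codes for an ELR chemokine, named for the Glu-Leu-Arg motif before the first cysteine that receptor binding requires. The lines below give 60 coding bases of the GENCODE transcripts, 5′ to 3′, with the codons of that motif in capitals. In CXCL1, CXCL2 and CXCL3 the stretch covers coding bases 94 to 153 and crosses an exon junction, and in CXCL8 it covers coding bases 67 to 126.
CXCL1: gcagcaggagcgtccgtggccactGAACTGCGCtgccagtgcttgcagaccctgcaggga
CXCL2: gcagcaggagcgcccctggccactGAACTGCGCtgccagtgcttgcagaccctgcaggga
CXCL3: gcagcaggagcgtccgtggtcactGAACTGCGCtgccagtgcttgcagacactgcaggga
CXCL8: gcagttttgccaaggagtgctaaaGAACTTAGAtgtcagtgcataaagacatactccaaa

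Over the whole coding sequence, CXCL1 and CXCL2 were identical at 300 of 321 bases (93.5%), CXCL1 and CXCL3 at 90.7% and CXCL2 and CXCL3 at 94.4%. CXCL8 was identical to the other 3 at 50.3% to 52.8% of alignment positions, with gaps counted as differences here and for the 3′ UTRs. The 3′ ends, where the reads lie, set the copies apart. The 3′ UTRs of CXCL1 and CXCL2 were 85.7% identical, and CXCL3 shared 61% with CXCL1 and 61.5% with CXCL2. Of the 400 windows of 101 bases (the read length) in the last 500 bases of each transcript, 0 were identical to the transcripts of another gene for CXCL1, CXCL2, CXCL3 and CXCL8. An error-free read from these ends therefore has a single matching gene, although reads that start further upstream were not examined.

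The 3′ UTRs also carry ATTTA, the core of the AU-rich elements known to make such messages unstable. Stretches of 30 bases of the 3′ UTR are printed for 6 members, on the strand of the message, with every ATTTA in capitals, and these are members with TTATTTATT in that UTR. They include called members (CXCL1, CXCL8 and TNFAIP3), members without a call (CXCL2 and CXCL3) and IL1B, which had 0 counts.
CXCL1 (chr4:73870673-73870702, plus strand): aagtcttctATTTATTTATTTAttcattag
CXCL2 (chr4:74097590-74097619, minus strand): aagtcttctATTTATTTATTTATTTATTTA
CXCL3 (chr4:74036773-74036802, minus strand): aatgtcagttgttATTTAttcaaattatct
CXCL8 (chr4:73742663-73742692, plus strand): tatgtaaagtattATTTAtttgaatctaca
IL1B (chr2:112829995-112830024, minus strand): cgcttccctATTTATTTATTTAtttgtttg
TNFAIP3 (chr6:137882297-137882326, plus strand): tgtaattcactttATTTAttttattacaaa

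Each stretch was picked for the most ATTTA among those of that length that hold TTATTTATT whole. The stretch of CXCL1 holds 3 overlapping ATTTA and that of CXCL2, where ATTTA runs to the cut end, holds 5. Both start 137 bases after the stop codon. Over the whole 3′ UTR, ATTTA occurred 5 times in CXCL1, 10 times in CXCL2, 7 times in CXCL3, 9 times in CXCL8, 3 times in CCL20 and NFKBIA, 5 times in IL1A and TNFAIP3 and 6 times in IL1B. SAA1, with a 3′ UTR of 122 bases, held 0. The longer element TTATTTATT occurred in the 3′ UTR of 6 of the 10 members. In the last 500 bases it was found in 4 members (CXCL1, CXCL2, CXCL3 and IL1B), and 2.6% of 19430 protein-coding genes hold it in the same window, while 54.8% hold at least 1 ATTTA. For these shares the longest transcript of each gene was searched, and for the members an annotated principal transcript. The letters were searched on the sense strand only and overlapping matches were counted. A match describes the sequence and does not show that a factor binds there.

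CXCL1 (GRO alpha) is an ELR chemokine that attracts neutrophils. It had 62, 61 and 62 counts in F0, against 98, 83 and 104 counts in F2. As CPM, the library-size-normalized count scaled by the trimmed mean of M values (TMM), the F0 level was 3.66, 3.69 and 3.67 and the F2 level was 6.27, 5.39 and 6.63. All F2 libraries thus lay above all F0 libraries, and the F0 values were closer to each other than the counting error of 62 counts. The mean rose from 3.67 ± 0.0175 (SD, n = 3) in F0 to 6.10 ± 0.638 CPM (SD, n = 3) in F2. The log2 fold change was 0.73 ± 0.16 (SE) and its adjusted p was 0.0031 in the quasi-likelihood test of edgeR.

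CXCL8 (interleukin 8) is the best known of the ELR chemokines and is made by many carcinomas. Its level was 24.5, 28.5 and 30.5 CPM in F0 and 33.4, 34.2 and 39.2 CPM in F2, from 415, 471 and 515 counts and 522, 526 and 615 counts. The lowest F2 library lay above the highest F0 library. The mean rose from 27.8 ± 3.04 (SD, n = 3) in F0 to 35.6 ± 3.17 CPM (SD, n = 3) in F2. The log2 fold change was 0.35 ± 0.088 (SE) and its adjusted p was 0.0075. When F2 replicate 3 was left out, CXCL8 had a log2 fold change of 0.28 and an adjusted p of 0.055, so its call was lost. The call was kept in 5 of the 6 fits that each left out a library.

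CXCL2 and CXCL3 (GRO beta and GRO gamma), the nearest copies of CXCL1, had higher means in F2 and did not pass the test. CXCL2 was at 10.2, 12.6 and 11.2 CPM in F0, against 11.5, 13.8 and 13.3 CPM in F2. Its groups overlapped, and its log2 fold change was 0.19 ± 0.12 (SE) with an adjusted p of 0.30. CXCL3 was at 3.42, 3.57 and 2.19 CPM in F0, against 3.39, 5.0 and 3.06 CPM in F2, with the lowest value in F0 and the highest in F2. The other two F2 values lay just below the other two F0 values. Its log2 fold change was 0.32 ± 0.23 (SE) with an adjusted p of 0.38, from 37 to 77 counts per library. These values do not show that CXCL2 or CXCL3 was equal in F0 and F2.

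**Figure D1:**
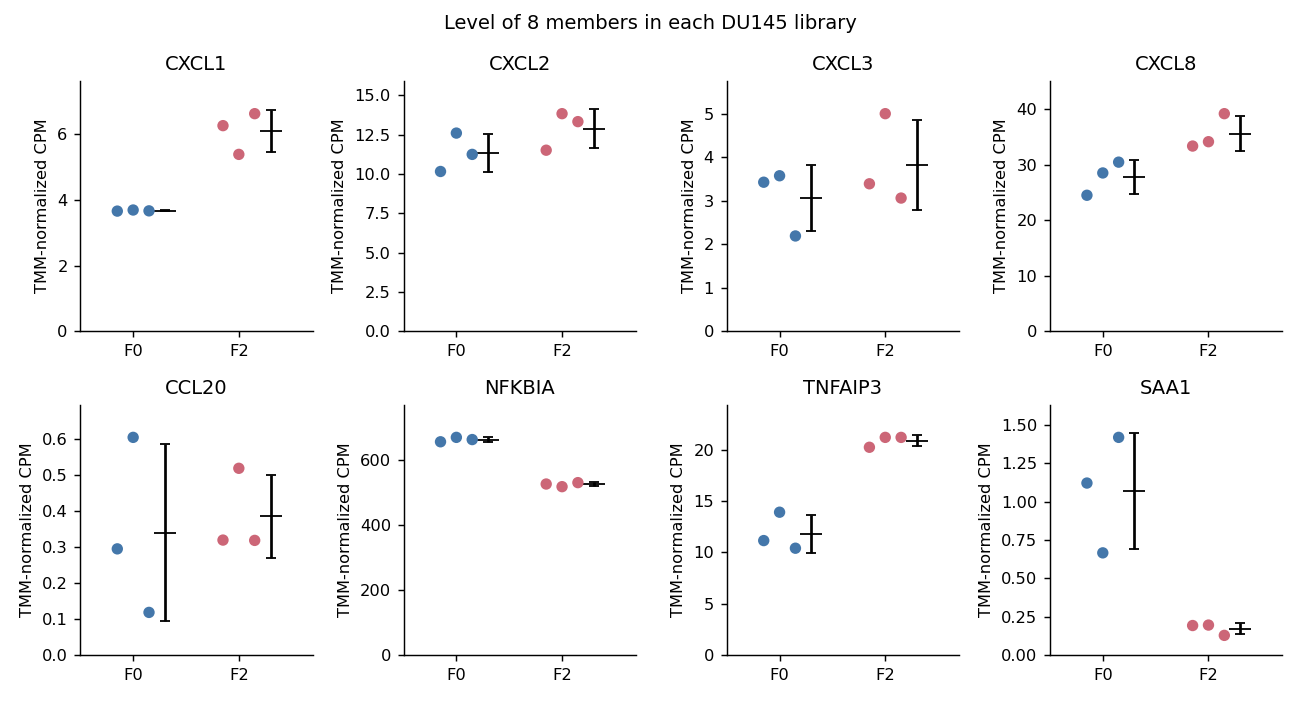
Level of the 8 members with any count, in TMM-normalized CPM on a linear axis from 0, for 3 F0 (blue) and 3 F2 (red) DU145 libraries. Points are libraries and bars the mean ± SD. F0 and F2 are separate for CXCL1, CXCL8, NFKBIA, TNFAIP3 and SAA1, and intermixed for CXCL2, CXCL3 and CCL20.

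CCL20 draws CCR6-bearing lymphocytes and dendritic cells and is among the most NF-kB dependent chemokines of epithelia. It had 5, 10 and 2 counts in F0 and 5, 8 and 5 counts in F2, too few to pass the filter. The summed counts, 17 and 18, gave an F2 to F0 ratio of 1.14 with an exact 95% interval of 0.555 to 2.36, which covers counting error only. A change of CCL20 within that interval was not detectable at this depth.

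Summed over the 5 chemokines, the level was 42.0, 49.0 and 47.7 CPM in F0 and 54.9, 58.9 and 62.5 CPM in F2. The groups did not overlap, and the mean of F2 (58.8 ± 3.85 CPM, SD, n = 3) was 1.27 times that of F0 (46.2 ± 3.70 CPM). This sum was largely CXCL8.

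Ratios within a library do not depend on the scaling, and 4 of them were compared after the values of the members had been seen. CXCL1 was at 36, 29.3 and 32.6 counts per 100 CXCL2 counts in F0 and at 54.4, 39.0 and 49.8 in F2, and the groups did not overlap (32.7 ± 3.36 and 47.7 ± 7.94, SD, n = 3 each). The ratio of CXCL1 to CXCL3 (126 ± 36.1 and 170 ± 56.0 counts per 100) and that of CXCL8 to CXCL2 (246 ± 22.7 and 277 ± 26.2 counts per 100) overlapped between the groups. In the two-sided exact permutation test, the ratio of CXCL1 to CXCL2 had p = 0.1, the smallest value that 3 against 3 allows, and p = 0.2 after adjustment over the 4 ratios. With 0.1 as its smallest value, the test cannot decide whether CXCL1 and its copies differed in response, and no difference is claimed.

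The receptors of these chemokines were not seen. CXCR1 and CXCR2, through which the ELR chemokines signal, and CCR6, the receptor of CCL20, had 0 counts in all 6 libraries. Of 11 chemokine receptor genes listed, 8 had 0 counts throughout and only CXCR4, the receptor of CXCL12, was tested. CXCR4 was at 2.30, 2.54 and 1.83 CPM in F0, against 1.41, 1.36 and 1.53 CPM in F2. The F2 values lay below the F0 values, but the log2 fold change of -0.63 ± 0.26 (SE) had an adjusted p of 0.10. A count of 0 allows up to 3 counts, which is 0.177 to 0.182 CPM in the F0 libraries and 0.191 to 0.195 CPM in the F2 libraries.

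Among 24 other chemokine genes, 11 had 0 counts in every library and 3 were tested. CXCL5, an ELR chemokine of the same cluster, was at 5.49, 5.03 and 6.09 CPM in F0, against 6.46, 7.01 and 7.20 CPM in F2. These groups did not overlap, with a log2 fold change of 0.31 ± 0.14 (SE) that missed the threshold (adjusted p 0.14). CXCL6 had 8, 5 and 10 counts in F0 and 3, 6 and 4 in F2 and was not tested. CCL28, a mucosal chemokine, rose from 2.52 ± 0.334 to 4.47 ± 0.627 CPM (SD, n = 3 each, adjusted p 0.0057). CXCL16, a membrane-bound chemokine, fell by 0.38 on the log2 scale (adjusted p 0.030), a call kept in 2 of 6 leave-one-out fits.

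IL1A and IL1B, which code for the pair of agonists of the IL-1 receptor, had 0 counts in all 6 libraries. With 3 counts as the limit that a count of 0 allows, the data allow levels of up to 0.182 CPM in F0 and 0.195 CPM in F2, and no comparison was possible. Neither transcript end shared a window of 101 bases with another gene. The receptor side was measured. IL1R1, the signalling chain, averaged 6.42 CPM in F0 against 5.60 CPM in F2, and IL1RAP, its partner chain, at 7.58 and 6.86 CPM, with adjusted p of 0.44 and 0.56. The secreted antagonist IL1RN had 5 counts over the F0 libraries and 0 over the F2 libraries, too few for a test.

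Of 23 genes of the IL-1 family, its receptors and its processing, 10 were tested, 2 rose and 1 fell (30% called, against 18.2% of all tested genes), with a median log2 fold change of 0.041. IL1RL1, the receptor of IL-33, rose from 0.768, 1.57 and 0.947 CPM to 3.01, 3.12 and 2.36 CPM (log2 fold change 1.36 ± 0.29 SE, adjusted p 0.0022). SIGIRR, a decoy-like receptor that dampens IL-1 signalling, rose from 1.41 ± 0.369 to 3.0 ± 0.967 CPM (SD, n = 3 each, adjusted p 0.011), and passed in 4 of the 6 leave-one-out fits. PYCARD, the inflammasome adaptor ASC that leads to cleavage of pro-IL-1 beta, fell from 2.78, 4.42 and 3.79 CPM to 1.53, 1.75 and 1.66 CPM (log2 fold change -1.15 ± 0.23 SE, adjusted p 0.0018). CASP1, the protease that carries out that cleavage, and IL33 were among the 7 genes with 0 counts. In each of the 3 called genes the F0 and F2 libraries did not overlap, as for 34% of all tested genes.

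The 2 inhibitors among the members went in opposite directions. NFKBIA codes for IkB alpha, which binds NF-kB dimers and returns them to the cytoplasm. Its level was 655, 669 and 662 CPM in F0 and 526, 517 and 530 CPM in F2, from 11046 to 11191 counts and 7967 to 8309 counts. The groups lay far apart against their spread. The mean fell from 662 ± 6.78 (SD, n = 3) in F0 to 524 ± 6.30 CPM (SD, n = 3) in F2. The log2 fold change was -0.34 ± 0.040 (SE) and its adjusted p was 5.38e-06.

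TNFAIP3 codes for A20, which removes activating ubiquitin chains from the adaptors upstream of NF-kB. Its level was 11.2, 13.9 and 10.4 CPM in F0 and 20.3, 21.2 and 21.2 CPM in F2, from 189, 230 and 176 counts and 317, 327 and 333 counts. All F2 libraries were above all F0 libraries and close to each other. The mean rose from 11.8 ± 1.85 (SD, n = 3) in F0 to 20.9 ± 0.557 CPM (SD, n = 3) in F2. The log2 fold change was 0.82 ± 0.11 (SE) and its adjusted p was 2.02e-05. An antisense gene, AL357060.1, overlaps TNFAIP3 and had 91 counts over the 6 libraries. The strand setting of the counting is not stated, and reads of the pair cannot be told apart without it.

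The plot of ratios within libraries restates this divergence without any scaling. This pair was compared after both changes had been seen, so its separation of the groups is no further evidence. There were 1.70, 2.08 and 1.57 TNFAIP3 counts per 100 NFKBIA counts in F0 and 3.86, 4.10 and 4.01 in F2. The mean was 1.79 ± 0.265 in F0 and 3.99 ± 0.125 in F2 (SD, n = 3 each), the groups did not overlap, and the two-sided exact permutation p was 0.1 (0.2 after adjustment over the 4 ratios), the smallest this design can give.

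**Figure D2:**
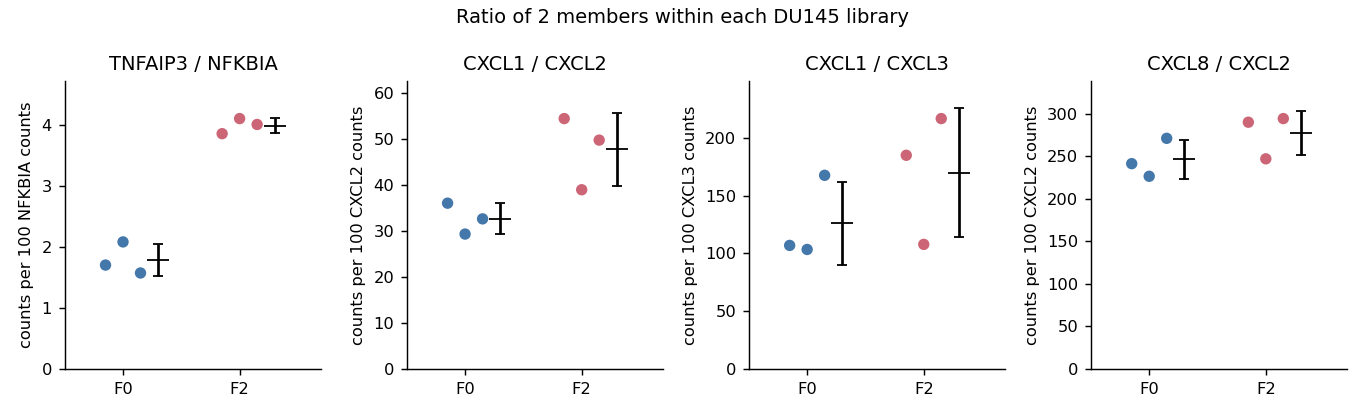
Counts of a member per 100 counts of another member in the same library, for 3 F0 (blue) and 3 F2 (red) DU145 libraries, on linear axes from 0. Points are libraries and bars the mean ± SD. TNFAIP3 against NFKBIA and CXCL1 against CXCL2 separate F0 from F2, and the other two ratios overlap.

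Of 14 further IkB proteins and NF-kB inhibitors, all tested, 2 were called, both lower in F2. That is 14.3%, below the 18.2% of all tested genes. NFKBIE (IkB epsilon) fell from 29.8 ± 3.42 to 23.1 ± 1.43 CPM (SD, n = 3 each, adjusted p 0.0073) and NFKBIB (IkB beta) from 62.4 ± 5.53 to 51.3 ± 3.58 CPM (adjusted p 0.0085). Each of these 2 calls was lost in 1 of the 6 leave-one-out fits. NFKBIZ, an atypical IkB needed for a later wave of target genes, was at 1.0, 1.27 and 2.54 CPM in F0, against 2.62, 1.75 and 3.51 CPM in F2. Its groups overlapped, and its adjusted p was 0.14. The median log2 fold change of the 14 was 0.089.

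SAA1 codes for serum amyloid A, an acute phase protein of liver and inflamed epithelia. It had 19, 11 and 24 counts in F0 and 3, 3 and 2 counts in F2. All F2 libraries were at or under the floor of 3 counts, and all F0 libraries were above it. The level went from 1.07 ± 0.380 to 0.171 ± 0.0380 CPM (SD, n = 3 each), with an adjusted p of 0.0012. SAA1 passed the filter on low counts only through its F0 libraries. Its direction was therefore largely set by the filter, and this p is not separate evidence of a fall. The fitted log2 fold change of -2.59 ± 0.51 (SE) depends on the prior count at this depth, so the counting ratio is given too. With 54 and 8 counts in all, F0 was 6.26 times F2 with an exact 95% interval of 2.96 to 15.2, which covers counting error only. In DESeq2 the unadjusted p of SAA1 was 4.5e-04 and no adjusted p was given.

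SAA1 cannot be fully separated from its near copy. The coding sequences of SAA1 and SAA2 were 97% identical, and 86 of the 400 windows of 101 bases at the SAA1 transcript end (21.5%) also occurred in SAA2 or in the read-through gene SAA2-SAA4. SAA2 itself had 5, 0 and 2 counts in F0 and 0 counts in each F2 library. The deposited table tallies reads with several alignments apart from the genes, so reads from such windows would be missing from both copies, and the value of SAA1 is uncertain to that extent.

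**Figure D3:**
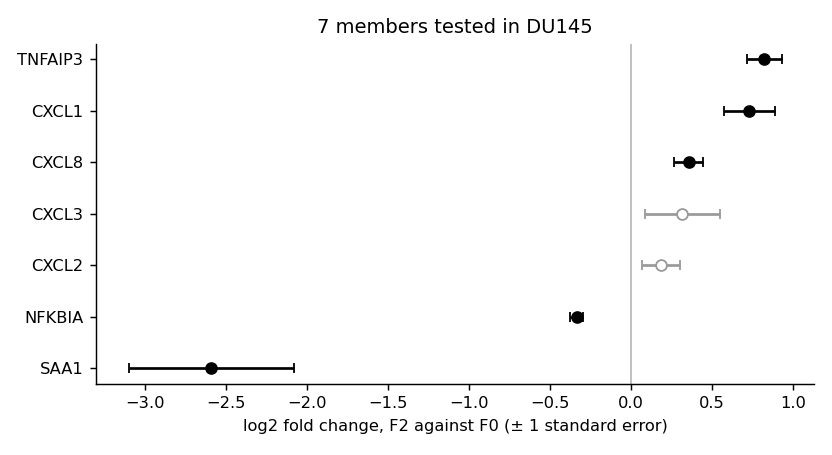
Log2 fold change of F2 against F0 for the 7 tested members, with 1 standard error to each side. Filled points passed an adjusted p under 0.05 and open points did not. TNFAIP3, CXCL1 and CXCL8 lie above 0, NFKBIA and SAA1 below it, and the fitted value of SAA1 rests on 8 F2 counts in all.

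Of 24 other acute phase genes and regulators of that response, 7 had 0 counts in every library and 6 were tested. Of these 6, 2 rose and 3 fell, where 9.49% of all tested genes were higher and 8.67% lower. Among the 6, SERPINA1 alone codes for an acute phase protein, and the others are CEBPB, CEBPD, STAT3, IL6R and IL6ST. The remaining acute phase genes of the list were too low to test. SERPINA1 (alpha-1 antitrypsin) rose from 3.6, 3.94 and 4.44 CPM to 7.74, 8.38 and 8.42 CPM, a direction opposite to SAA1 (log2 fold change 1.03 ± 0.15 SE, adjusted p 4.98e-05). The 3 called genes that fell are regulators of acute phase genes. CEBPD fell from 84.6 ± 4.87 to 54.2 ± 2.92 CPM (SD, n = 3 each, adjusted p 3.06e-07), CEBPB from 94.6 ± 5.0 to 68.4 ± 3.97 CPM (adjusted p 1.11e-05) and STAT3 from 270 ± 1.35 to 231 ± 2.23 CPM (adjusted p 7.63e-04). CEBPB and CEBPD code for the C/EBP factors that bind acute phase promoters, and STAT3 carries the IL-6 signal. In the paper, blots of cells given MSC CM showed more total and phosphorylated STAT3 protein in F2 than in F0. RNA counts measure neither. IL6R, the chain that binds IL-6, rose by 0.24 on the log2 scale (adjusted p 0.034), a call kept in 2 of 6 leave-one-out fits. LCN2, which codes for lipocalin 2, had 2, 1 and 1 counts in F0 and 7, 2 and 6 in F2 and was not tested.

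Of the 5 NF-kB subunits, 20% were called, against 18.2% of all tested genes, and the called gene was NFKB2 (p100, the precursor of p52). It fell from 66.4 ± 8.23 to 53.3 ± 6.09 CPM (SD, n = 3 each, adjusted p 0.012) and kept its call in 3 of 6 leave-one-out fits. The others had log2 fold changes of 0.093 for RELA, -0.13 for NFKB1, -0.18 for RELB and -0.068 for REL, none past the threshold. Their activity is set largely by localization, which RNA does not measure. With library size alone in place of TMM, 3 of the 5 were called. Under that setting 3637 of all 14316 tested genes were called, 832 higher and 2805 lower.

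Of 33 kinases and adaptors upstream of NF-kB, 27 were tested, 2 rose and 1 fell, or 11.1% of those tested, below the 18.2% of all tested genes. IRAK1, the kinase that relays IL-1 and Toll-like receptor signals, rose from 262 ± 4.31 to 314 ± 14.0 CPM (SD, n = 3 each, adjusted p 3.96e-04). MAP3K14 (NIK), the kinase of the non-canonical pathway that processes NFKB2, fell from 51.8 ± 3.91 to 37.6 ± 3.99 CPM (adjusted p 3.1e-04). RBCK1 (HOIL-1), part of the linear ubiquitin complex, rose by 0.17 on the log2 scale (adjusted p 0.027), with overlapping groups and a call kept in 1 of 6 leave-one-out fits.

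Other known NF-kB targets split evenly. Of 33 listed, 24 were tested, 6 rose and 6 fell, with a median log2 fold change of -0.058, so 50% were called, against 18.2% of all tested genes. The largest changes by fold were ZC3H12A and BIRC3. ZC3H12A codes for Regnase-1, an RNase that degrades inflammatory messages, and rose from 5.41 ± 1.20 to 9.54 ± 0.748 CPM (SD, n = 3 each, adjusted p 8.7e-04). BIRC3 codes for the ubiquitin ligase cIAP2 and fell from 157, 156 and 146 CPM to 95.1, 93.1 and 91.7 CPM (log2 fold change -0.71 ± 0.049 SE, adjusted p 3.66e-09).

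The urokinase receptor PLAUR rose from 155 ± 3.30 to 252 ± 38.2 CPM (SD, n = 3 each, adjusted p 1.02e-06) and the protease itself, PLAU, from 421 ± 66.0 to 589 ± 28.3 CPM (adjusted p 1.26e-04). The hyaluronan receptor CD44 rose from 143 ± 7.77 to 222 ± 4.5 CPM (adjusted p 1.71e-08), and BCL2A1, an anti-apoptotic BCL2 relative, from 11.3 ± 0.957 to 16.5 ± 1.41 CPM (adjusted p 0.0012). ICAM1, an adhesion molecule often used as a readout of NF-kB, was at 55.0, 55.2 and 59.5 CPM in F0, against 47.4, 58.0 and 48.9 CPM in F2, with overlapping groups and an adjusted p of 0.21. IL6 had 4, 8 and 9 counts in F0 and 9, 11 and 15 in F2 and was not tested.

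**Figure D4:**
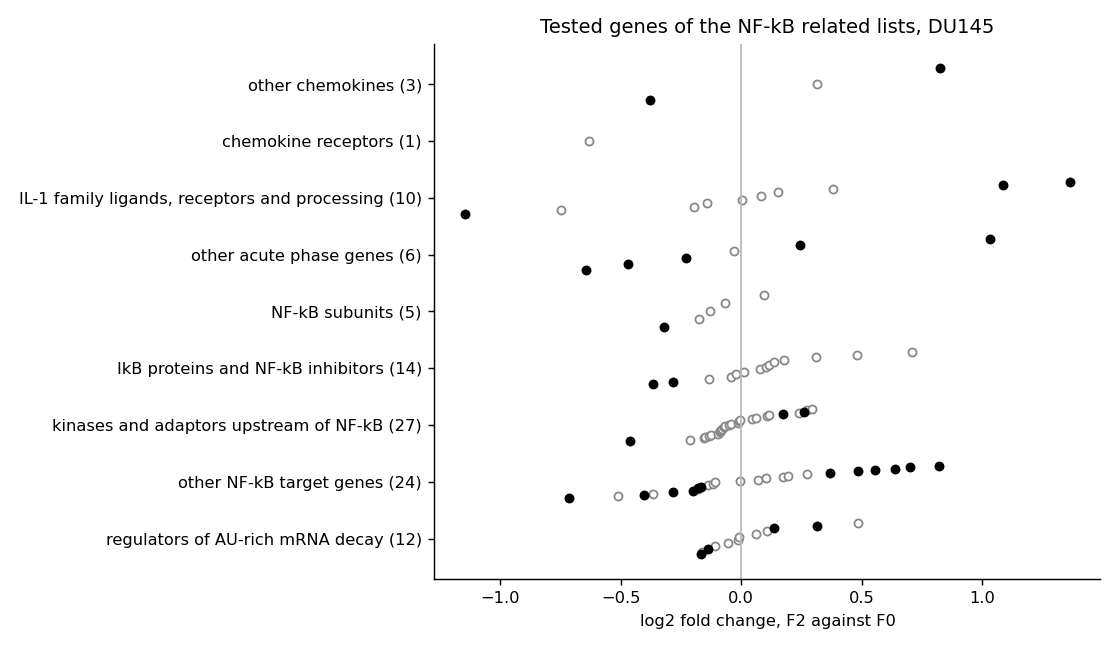
Log2 fold change of F2 against F0 for the tested genes of 9 lists around the members, with the number tested in parentheses. Filled points passed an adjusted p under 0.05, open points did not, and the height within a row only separates points. Called genes lie on both sides of 0 in 6 of the lists, and for the other NF-kB targets there are 6 on each side.

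Of 12 regulators of AU-rich mRNA decay, all tested, 2 rose and 2 fell (33.3% called, against 18.2% of all tested genes), and leaving out a library gave 1 to 5 calls. ZFP36L1, which binds AU-rich elements and brings in the decay machinery, rose from 411 ± 4.97 to 511 ± 6.08 CPM (SD, n = 3 each, adjusted p 1.62e-05). The other 3 calls were small. MAPKAPK2, the kinase that inactivates such binding proteins, rose by 0.14 on the log2 scale (adjusted p 0.031), HNRNPD (AUF1) fell by 0.14 (adjusted p 0.035) and CNOT1, the scaffold of the deadenylase, fell by 0.17 (adjusted p 0.019). Each kept its call in 2 or 3 of 6 leave-one-out fits. ZFP36 (tristetraprolin), the best known of these factors, varied from 27 to 123 counts per library and was not called (adjusted p 0.31).

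Gene counts ranged from 16029876 to 16479239 in the F0 DU145 libraries and from 15879480 to 16217918 in F2, so depth hardly differed. The share of uniquely placed reads that the counting assigned to no feature was 9.81% ± 0.213 in F0 and 11.6% ± 0.303 in F2 (SD, n = 3 each). Its part in the results was not tested. With library size alone in place of TMM, calls in all genes shifted from 1358 higher and 1241 lower to 832 higher and 2805 lower, while 5 members were still called. In bulk RNA, fewer cells of a kind and less RNA per cell cannot be told apart.

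The cell line was checked against marker genes. Of 6 epithelial markers, 5 were tested. KRT8, KRT18, KRT19 and EPCAM were called higher in F2, with the 3 keratins at 255 to 484 CPM on average in F0. KRT8 had overlapping groups and kept its call in 3 of 6 leave-one-out fits, and EPCAM kept its call in 1 of 6. CDH1 (E-cadherin) fell from 14.0 ± 1.79 to 5.78 ± 0.0915 CPM (SD, n = 3 each, adjusted p 7.63e-07), and KRT5 had 0 counts. Of 18 markers of MSCs and stromal cells, THY1, LUM, POSTN, SPARC and CXCL12 had 0 counts in all 6 libraries. The 15 stromal markers under 10 CPM in F0 summed to 10.9 to 12.2 CPM in F0 and to 7.84 to 8.57 CPM in F2. All 18 summed to 1542 to 1721 CPM in F0 and to 1661 to 1781 CPM in F2. Of the 3 above 10 CPM, VIM was not called, TAGLN fell, and NT5E (CD73) rose from 158 ± 9.49 to 222 ± 10.3 CPM (adjusted p 1.3e-06). The part of these markers in the results was not tested. Of 6 leukocyte markers, PTPRC, CD3E and MS4A1 had 0 counts, and the 6 summed to 5.69 to 5.90 CPM in F0 and to 7.20 to 9.81 CPM in F2, nearly all of it CD68, a lysosomal gene that is not restricted to leukocytes. The 3 endothelial markers summed to at most 0.256 CPM.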

How the data were processed

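Total RNA of 3 F0 and 3 F2 DU145 samples was profiled with QuantSeq, which reads 1 fragment near the poly(A) end of each transcript. Alignment and counting were done by the authors with the Bluebee software, and the deposited values are raw counts of each gene, not normalized. The submitters' processing notes name STAR 2.5.2a, HTSeq 0.6.0 and GRCh38; the annotation release and strand setting are not given in the sources used here. Lines that name no gene stayed out of library sizes, and the 92 spike-in RNAs all had 0 counts.

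Computed here from the deposited counts: genes were filtered with filterByExpr of edgeR 4.0.16 (minimum count 10, minimum total 15), normalized by TMM, and F2 was tested against F0 by the quasi-likelihood F-test without covariates in R 4.3.3. Calls had a Benjamini-Hochberg adjusted p under 0.05 over all 14316 tested genes. The SE is the log2 fold change divided by the square root of F. Fold changes and p are two-sided comparisons of 3 against 3 samples. Intervals and the floor of 3 counts cover counting error only, and PCR copies could not be removed. The method was tested on simulated data.

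The members and lists were chosen with earlier results of these data known. Named genes are all 10 members, up to 6 called genes per list by size of change (mean of at least 1 CPM) and 13 family genes named in any case; others, such as CXCR4, CASP1, ZFP36 and the subunits without a call, were named after their values were seen. Alternatives were median-ratio size factors, library size alone, every gene with 1 count, DESeq2 1.42.0, a replicate block, leaving out each library, a minimum of 10 counts in all libraries, and no mitochondrially encoded genes. The ratios within libraries and the sequence descriptions were added after the values were seen. Sequences and positions are from GENCODE release 29, in which 56531 of 60107 identifiers were found (56104 had a symbol). Promoter motifs and protein sequences were planned but not analysed here.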

Additional observations from a re-analysis of the deposited data

How the results depend on the processing

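Of the 7 tested members, CXCL1, CXCL2, CXCL3, NFKBIA and TNFAIP3 kept their direction and their side of the threshold in all 13 alternative fits, and CXCL8 in 12. CXCL8 lost its call without F2 replicate 3 (log2 fold change 0.28), and its log2 fold change lay between 0.27 and 0.42 when each library was left out. SAA1, which passed the main filter only through its F0 libraries, kept its call in the 11 fits that gave it an adjusted p. It was removed by the filter of 10 counts in every library and had no adjusted p in DESeq2, which left 4 members called in each. The same-numbered samples did not deviate together (correlations 0.0101, -0.0102 and 0.0291), so the numbers were not taken as pairs, and with a replicate block 2867 genes and 5 members were called against 2599 and 5 without it. With library size alone, 832 genes were higher and 2805 lower, and calls numbered 1 chemokine receptor, 3 NF-kB subunits and 6 kinases and adaptors, under which the median of all genes moved from -0.0025 to -0.092. DESeq2 called 1911 genes and 1 other chemokine. Leaving out each library gave 1670 to 2621 calls in all, 909 to 1377 higher and 761 to 1244 lower, the fewest without F0 replicate 2. The same fits called 1 to 2 other chemokines, 1 to 3 IkB proteins and inhibitors, 0 to 1 NF-kB subunits and 1 to 5 regulators of AU-rich decay. The cause of these shifts was not tested. CCL20, under the filter of the test, had an adjusted p of 0.905 when every gene with 1 count was kept, and IL1A and IL1B, with 0 counts, could not be tested in any fit.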
